A study of Gallus gallus with 12 samples.

Results

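Young and old MYCN-driven retinal cell lines from chicken were compared over all genes, 6 lines of the 12 libraries sequenced. A DMC line is a culture of retinal cells that carry human MYCN and green fluorescent protein (GFP), placed in the genome of White Leghorn embryos by a piggyBac vector electroporated into the eye in ovo at embryonic day 3.5 (E3.5). The 3 young lines, DMC8, DMC9 and DMC10, had been cultured for under 4 weeks, and the 3 old lines, DMC1, DMC2 and DMC3, for over 200 days. All 6 carried the same wild-type human MYCN transgene under a promoter that is active in many cell types, and GFP-positive retina of E14 embryos was the source of the cells. The other libraries, which are used here for the estimate of spread and for values side by side, were 3 lines with MYCN T58A, a stabilised form of the protein, also cultured for over 200 days (DMC4, DMC5 and DMC6), and 3 E14 retinas that had not been electroporated. The sample titles of DMC4 and DMC5 carry the word RPMI and that of DMC6 the word DMEM, both names of culture media, so the medium may have differed within the T58A lines, although the growth protocol names RPMI for all MYCN lines.

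The old lines were not the young lines followed over time: each line came from its own culture, so that time in culture cannot be told apart from the line and the embryo it started from. The sources name no batch. With 3 libraries a group, the p-values of single genes measure the spread within all 4 groups, which includes that between E14 retinas. The median SD on the log2 scale was 0.17 in E14 retina, 0.33 in young, 0.43 in old and 0.64 in T58A lines. In bulk RNA, fewer cells of a type and less RNA per cell cannot be told apart.

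MYCN is a transcription factor of the MYC family that drives growth and division of progenitor cells in the developing nervous system, and its amplification is known from neuroblastoma and from a subset of retinoblastoma. In the embryonic retina, cones arise from progenitors that express OTX2 and later turn on RXRG, THRB, the cone opsins and the proteins of phototransduction, the chain that turns light into a change of membrane potential. Cells that are kept dividing for months meet the barriers of senescence, in which CDK inhibitors and p53 hold the cell cycle, and cultures can drift as subclones take over.

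The 6 libraries held 23401769 to 35088450 reads on genes, and 16772 to 17288 genes had at least 1 read in a line. Values below are normalized counts, that is, reads scaled to a common library size with trimmed mean of M-values (TMM) factors, and they are not corrected for gene length. Transcripts of chromosome W, which only female birds carry, separated the lines. Of 25 W genes tested, 2 had at least 10 reads in DMC8 and in DMC9, against 25 in DMC10, 25 in DMC1, 24 in DMC2 and 25 in DMC3. The old lines were therefore all W-positive, while the young lines were mixed, so that age cannot be fully told apart from the presence of W transcripts.

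Transgene levels overlapped between the ages. Human MYCN was at 167801, 270530.4 and 205419 normalized counts in DMC8, DMC9 and DMC10 and at 249884, 258300.0 and 313643 in DMC1, DMC2 and DMC3. The groups overlapped, since DMC9 was above DMC1 and DMC2, and the old mean was 1.28-fold the young mean (exact permutation test, two-sided, p = 0.3, where the smallest possible p is 0.1). GFP, which the same vector encodes, was at 257055, 430521 and 314043 in the young lines and 365756, 412637 and 478530.5 in the old lines (exact permutation test, two-sided, p = 0.3). With library totals in place of TMM factors all old lines were above all young lines for both transgenes, at the smallest exact permutation p of 0.1. The ratio of human MYCN to GFP reads was 0.626 to 0.683 over the 6 lines, with no separation by age. Chicken MYCN, the gene of the host, was near 0 at both ages: 3.53, 4.49 and 9.97 in the young lines and 0, 0.939 and 0.939 in the old lines, against a mean of 744 in E14 retina. Chicken MYC was at 28.3, 112 and 39.9 in the young lines and 23.1, 16.9 and 12.2 in the old lines.

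Few genes passed the test between the ages. Differentially expressed (DE) genes were those with an adjusted p (Benjamini-Hochberg) no higher than 0.05 in limma and at least a log2 fold change of 1 in either direction. Of 15284 genes tested, 30 were DE (0.196%), of which 9 were higher (0.0589%) and 21 lower (0.137%) in the old lines. In all 30, the 3 old lines did not overlap the 3 young lines, but the genes were chosen by these same values. Over all genes the old lines lay entirely above the young lines in 8.88% and entirely below them in 8.03%, and an unadjusted p under 0.05 was reached by 4.46% in the direction of higher in old and by 4.89% in the direction of lower. These shares are the background for the counts in every gene list below. The median absolute log2 difference was 0.32, and 2371 genes differed by at least 1 on the log2 scale at any p.

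The calls rested on the full design. The fit pooled the spread of all 12 libraries, and when only the 6 lines compared, or the 9 DMC libraries, were fitted, 1 gene (ENSGALG00000051172) was DE, with 1703 and 1007 genes at an unadjusted p under 0.05. Leaving out 1 line at a time gave 13 DE genes without DMC8, 5 without DMC9, 12 without DMC10, 14 without DMC1 and 17 without DMC2 or DMC3. With the presence of W transcripts as a further term, chosen after the data were seen, 2 remained (ENSGALG00000051172 and CEMIP). No DE gene was assigned to chromosome W or Z, but some had no chromosome assigned at all. These were ENSGALG00000051172, ENSGALG00000047222, ENSGALG00000046824, ENSGALG00000038481 and IRX3. In the values as deposited, in which the median of all genes was shifted by 0.15 on the log2 scale, 22 genes were DE and 50% of them were higher in old, against 30% here. The 5 genes called in each of the 6 leave-one-out fits were ENSGALG00000051172, GPAT2, CEMIP, ENSGALG00000046824 and HAND2. Of these, ENSGALG00000051172 and ENSGALG00000046824 passed the filter on reads only through the young lines, where they were high. By contrast, 11 of the 30 were called in none of these fits, IRX3, STRA6 and AIPL1 among them.

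**Figure D1:**
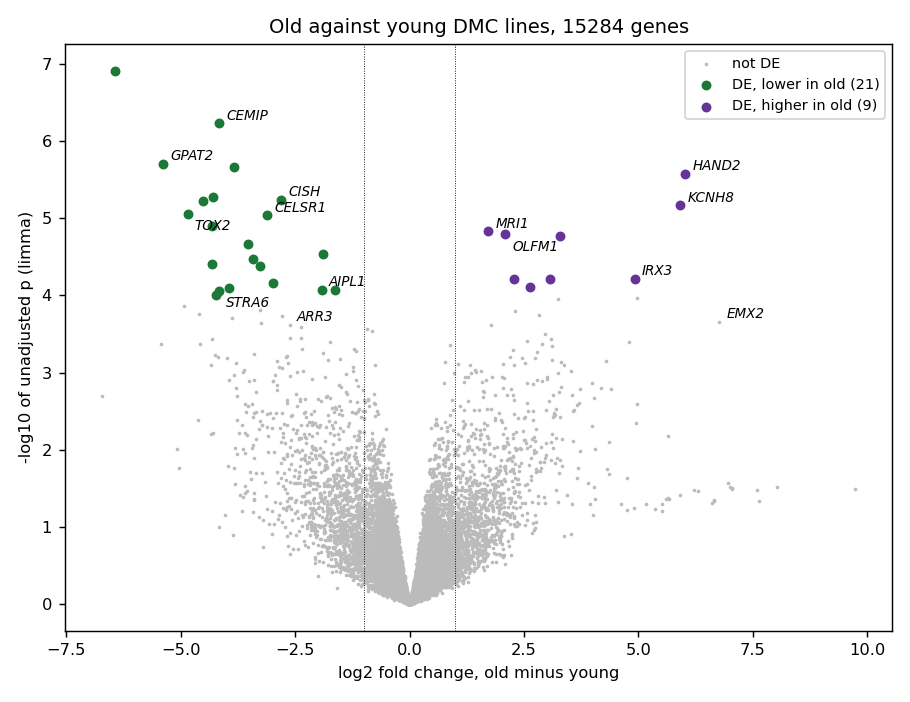
Log2 fold change between old and young DMC lines (x axis, positive is higher in old) against the -log10 of the unadjusted limma p (y axis) for 15284 genes, with DE genes in green (21 lower in old) and purple (9 higher in old) and dotted lines at a log2 fold change of 1 in each direction. EMX2, with a log2 fold change of 6.77, lies below the DE genes.

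The DE genes lower in the old lines included several with very low or no reads in those lines. The E14 retina mean was nearer the old than the young mean in 8 of the 21 genes. Whether old lines lost or young lines gained such transcripts was not tested. GPAT2, a mitochondrial enzyme of glycerolipid synthesis that in mouse also takes part in the piRNA pathway of germ cells, was at 132, 102 and 172 in DMC8, DMC9 and DMC10 and at 4.81, 0.939 and 1.88 in DMC1, DMC2 and DMC3 (log2 fold change -5.38, SE 0.61, adjusted p = 0.00808). The young mean was 53.1-fold the old mean. TOX2, a high mobility group box factor of chromatin, was at 693, 943 and 1494 in the young lines and 36.6, 22.5 and 45.1 in the old lines (log2 fold change -4.85, SE 0.64, adjusted p = 0.0127). CEMIP, a protein that takes part in the breakdown of hyaluronan, was at 1393, 1347 and 2464 in the young lines and at 81.8, 51.6 and 186 in the old lines (log2 fold change -4.16, SE 0.42, adjusted p = 0.0045). In each of these genes the highest old line was below the lowest young line.

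Further DE genes lower in the old lines follow, each with its level by line. STRA6, the membrane receptor through which cells take up retinol from retinol-binding protein, was at 403, 417 and 348 in the young lines and 7.7, 35.7 and 31 in the old lines (log2 fold change -4.16, SE 0.71, adjusted p = 0.0463), so that DMC1 was lower than DMC2 and DMC3. CELSR1, a cadherin of planar cell polarity, was at 2751, 4317 and 1947 in the young lines and 462, 286 and 268 in the old lines (log2 fold change -3.11, SE 0.41, adjusted p = 0.0127). CISH, a member of the suppressor of cytokine signalling family, was at 528, 335 and 433 in the young lines and 95.3, 53.5 and 41.3 in the old lines (log2 fold change -2.81, SE 0.36, adjusted p = 0.0113), and the group means were 6.82-fold apart. MTSS1, which binds actin and the plasma membrane, was at 3815, 6752 and 5592 in the young lines and 955, 2121 and 1393 in the old lines, a 3.62-fold lower mean (log2 fold change -1.89, SE 0.28, adjusted p = 0.0263). All of these were apart between the ages. RASL10A, a small GTPase related to Ras, was at 36.5, 55.7 and 80.9 in the young lines and 0.963, 2.82 and 1.88 in the old lines (log2 fold change -4.33, SE 0.60, adjusted p = 0.0162).

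AIPL1, a chaperone that photoreceptors need to assemble their phosphodiesterase, was the only DE gene of the lists of phototransduction and outer segment genes. It was at 1519, 1078 and 1923 in the young lines and 310.0, 476 and 394 in the old lines, with E14 retina at 2574 (log2 fold change -1.92, SE 0.32, adjusted p = 0.0463). F8, coagulation factor VIII, was at 383, 409.8 and 197 in the young lines and 6.74, 21.6 and 21.6 in the old lines (log2 fold change -4.32, SE 0.67, adjusted p = 0.0318). TMEM196 was at 1362, 1710.1 and 1761 in the young lines and 583, 443 and 528 in the old lines (log2 fold change -1.63, SE 0.28, adjusted p = 0.0463). In each of these genes the old lines had a measurable level. OR52L1, which carries the symbol of an olfactory receptor, was at 60.1, 147 and 139.6 in the young lines and 0.963, 9.39 and 8.45 in the old lines and sat at the threshold with an adjusted p of 0.05 in limma.

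A group of 5 DE genes had no read in any old line. ENSGALG00000051172, which has no symbol in the files, was at 70.7, 104 and 86.4 in the young lines (254 reads in all) and at 0 in DMC1, DMC2 and DMC3. Against a floor of 3 reads over the 3 old lines it was at least 92-fold higher in young, and it was the DE gene with the lowest adjusted p in limma (0.00187). ICOSLG, the ligand of the costimulatory receptor ICOS, was at 21.2, 17.1 and 17.7 in the young lines, at least 19.7-fold higher. ENTPD8L1, related to the enzymes that split extracellular nucleotides, was at 5.89, 27 and 17.7 (at least 17.8-fold), GBP, a guanylate-binding protein of the family induced by interferon, at 9.42, 5.39 and 12.2 (at least 9.51-fold), and ENSGALG00000038481 at 5.89, 7.19 and 7.76 (at least 7.34-fold). The last 3 were low in the young lines too, with 20 to 51 reads in all. ENSGALG00000046824 had 49 reads over the young lines and 1 over the old lines. Of the other DE genes without a symbol, ENSGALG00000047222 was at 56.5, 113 and 95.3 in the young lines and 4.81, 0.939 and 3.75 in the old lines (log2 fold change -4.51, SE 0.57, adjusted p = 0.0113). ENSGALG00000021171 was at 743, 1119.7 and 1812 in the young lines and 104, 61 and 188 in the old lines (log2 fold change -3.42, SE 0.52, adjusted p = 0.0286), which is a measurable level in each old line.

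The presence or absence of reads was examined without a test. Genes with at least 10 reads in each young line and none in any old line numbered 3, among them ICOSLG and ENSGALG00000051172, while 0 genes had at least 10 reads in each old line and none in any young line.

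The genes higher in old were led by transcription factors and a potassium channel that were near 0 in young lines. HAND2, a basic helix-loop-helix factor known from heart, limb and sympathetic neurons, was at 2.36, 12.6 and 12.2 in DMC8, DMC9 and DMC10 and at 233, 1114 and 637 in DMC1, DMC2 and DMC3 (log2 fold change 6.03, SE 0.71, adjusted p = 0.00808). E14 retina held a mean of 0.294, so that the transcript was nearly absent from the tissue of origin as well. Most other rises differed from HAND2 in this. On the log2 scale the E14 retina mean was nearer the old than the young mean in 6 of the 9 genes. These were TSHZ3, EFCC1, SSTR1, ST6GAL2, IRX3 and KCNH8. Whether old lines gained or young lines lost such transcripts was not tested. KCNH8, a voltage-gated potassium channel, was at 7.07, 2.7 and 9.97 in the young lines and 532, 286 and 463 in the old lines (log2 fold change 5.91, SE 0.76, adjusted p = 0.0115). IRX3, a homeobox factor of the Iroquois family that patterns the neural tube, was at 5.89, 16.2 and 19.9 in the young lines and 423, 611 and 261 in the old lines (log2 fold change 4.91, SE 0.80, adjusted p = 0.0409). The old means of the 3 genes were 73.1-fold, 64.9-fold and 30.8-fold the young means.

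The next genes were higher in old by a smaller log2 fold change than the first ones. OLFM1, a secreted glycoprotein of developing neurons, was the most abundant, at 3718, 4958 and 4253 in the young lines and 13928, 20315 and 21584 in the old lines (log2 fold change 2.09, SE 0.30, adjusted p = 0.0173). MRI1, an enzyme of methionine salvage, was at 663, 728 and 912 in the young lines and 3101, 2858 and 1782 in the old lines (log2 fold change 1.72, SE 0.24, adjusted p = 0.0173). ST6GAL2, a sialyltransferase, was at 57.7, 49.4 and 55.4 in the young lines and 1012, 585 and 262 in the old lines (log2 fold change 3.29, SE 0.47, adjusted p = 0.0173), which spread the old lines more widely than the young ones. None of these 3 was near 0 in young lines. TSHZ3, a zinc finger homeobox factor, was at 21.2, 37.7 and 21.1 in the young lines and 150.2, 142 and 100.4 in the old lines (log2 fold change 2.28, SE 0.37, adjusted p = 0.0409). EFCC1, which carries an EF-hand, was at 37.7, 27.9 and 41 in the young lines and 309, 191 and 189.6 in the old lines (log2 fold change 2.64, SE 0.44, adjusted p = 0.0463). SSTR1, a receptor for somatostatin, was at 7.07, 3.59 and 5.54 in the young lines and 36.6, 69.5 and 53.5 in the old lines (log2 fold change 3.07, SE 0.50, adjusted p = 0.0409).

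**Figure D2:**
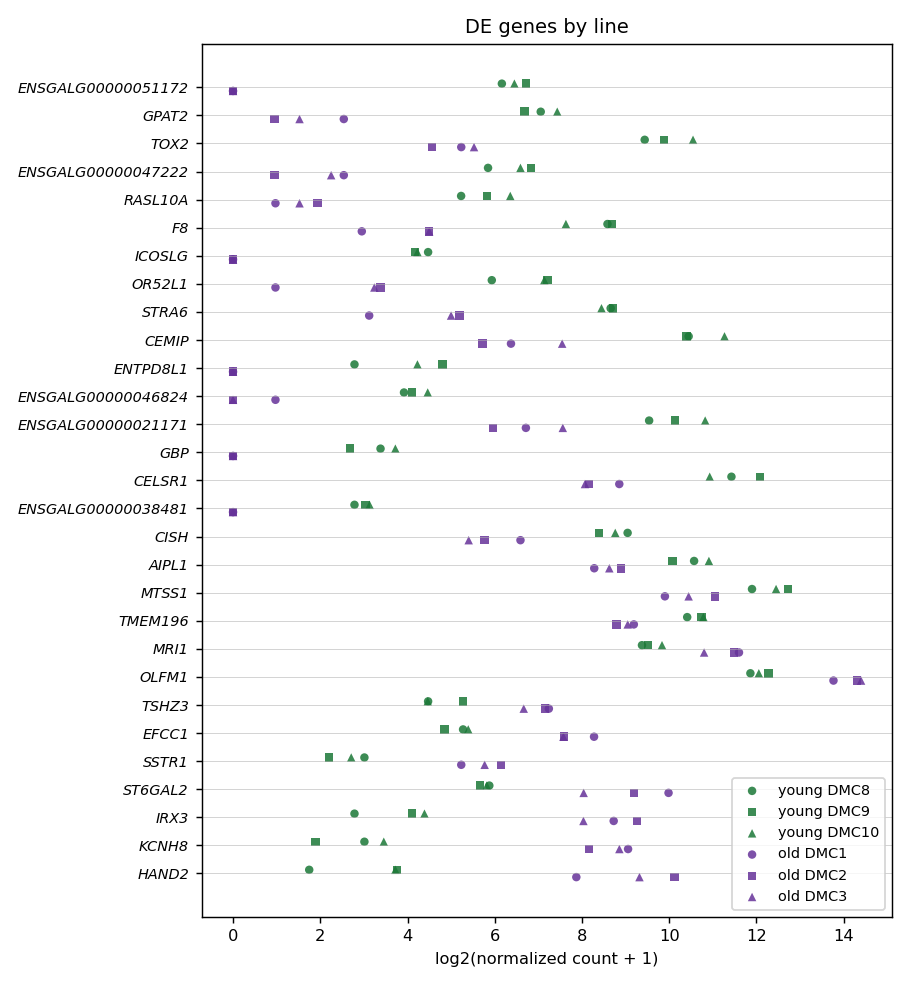
Level of 29 of the DE genes (y axis, ordered by log2 fold change) in the 3 young lines (green) and 3 old lines (purple) on the scale of log2(normalized count + 1) (x axis), with a marker shape per line. In every gene drawn the green and the purple markers do not overlap, and the lowest markers of 5 genes are at 0 in all old lines.

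Among further genes that the study names, EMX2, ARR3 and ABCA4 did not pass the test used here. The study reports these genes as differentially expressed between the same young and old lines, from a pairwise exact test in edgeR. At the same cutoffs on adjusted p and log2 fold change, that test called many more genes in both directions than were DE here. EMX2, a homeobox factor of the forebrain, was at 4.71, 16.2 and 0 in the young lines and 367, 324 and 1058 in the old lines (log2 fold change 6.77, SE 1.28, adjusted p = 0.0821). Every old line was above every young line, although the young lines ranged from 0 and the old lines differed among themselves. ARR3, the arrestin of cones, was at 9617, 6817 and 10123 in the young lines and 1465, 1930.5 and 1009 in the old lines (log2 fold change -2.62, SE 0.50, adjusted p = 0.0838), and its means were 6.03-fold apart, with an adjusted p of 0.0127 under limma with voom weights. ABCA4, a flippase of photoreceptor outer segments, was at 4973, 2502 and 4307 in the young lines and 2429, 722 and 1179 in the old lines (adjusted p = 0.459 in limma).

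The T58A lines had also been cultured for over 200 days, and carry another form of the transgene. For HAND2 they were at 782, 429 and 547 in DMC4, DMC5 and DMC6, for IRX3 at 71.3, 102 and 725, and for KCNH8 at 5.57, 70.5 and 26.4. HAND2 thus lay within the range of the old lines, and KCNH8 below it. For CEMIP they were at 460.3, 419 and 516, between both groups, for TOX2 at 75.8, 90.8 and 571, with DMC6, the line whose title carries DMEM, highest, and for GPAT2 at 0, 0 and 2.3. ARR3 was at 349, 136 and 150.4 in these lines, below all old lines, and EMX2 at 762, 19.1 and 332. In E14 retina the means were 300.2 for GPAT2, 1346 for TOX2, 291 for CEMIP, 145 for KCNH8, 205 for ARR3 and 0 for EMX2. All 3 T58A lines lay on the old side of the 3 young lines in 21 of the 21 DE genes lower in old. They did so in 8 of the 9 higher in old. Those genes were chosen by their young and old values, so the counts are no separate support. Of 25 W genes tested, 2 had at least 10 reads in DMC4, 3 in DMC5 and 1 in DMC6. No fold or test of the T58A lines or E14 retina was made, since such comparisons share libraries with the fit.

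Cone phototransduction genes varied widely between lines of the same age. Of 20 members tested, 0 were DE at an adjusted p of at most 0.05 in limma, 4 had an unadjusted p under 0.05, all lower in old (ARR3, RGS9, RGS9BP and GRK7), and the median log2 fold change was -0.60, with that of all genes near 0. The summed level of the list was 30650.4 to 68957 in the young lines and 29170.1 to 87073 in the old lines. DMC9, a young line, and DMC2, an old line, had the lowest sums of their groups. RGS9, which speeds the shut-off of the light response, was at 3714, 4171 and 4451 in the young lines and 2684, 2563 and 1554 in the old lines, with no overlap (log2 fold change -0.90, SE 0.23, adjusted p = 0.209). GRK7, a kinase that shuts off cone opsins, was at 104, 42.2 and 49.9 in the young lines and 12.5, 29.1 and 31 in the old lines (adjusted p = 0.459 in limma).

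The opsins and the early steps of the cascade showed how far lines of one age differed. The green-sensitive opsin OPN1MSW was at 4.71, 155 and 554 in the young lines and 2673, 1.88 and 0 in the old lines, and thus both highest and lowest in the old group. The red-sensitive opsin OPN1LW was at 733, 632 and 915 in the young lines and 225, 2461 and 406 in the old lines, highest in DMC2. GUCA1A, a calcium sensor that activates guanylate cyclase, was at 3204, 443 and 3185 in the young lines and 553, 31.9 and 1102 in the old lines. In none of the 3 did the ages separate. The subunit PDE6C of the cone phosphodiesterase was at 4244, 243 and 2479 in the young lines and 2461, 619 and 654 in the old lines. The transducin subunit GNB3 was at 13007, 3111 and 10149.8 in the young lines and 25405, 4777 and 12400.2 in the old lines.

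**Figure D3:**
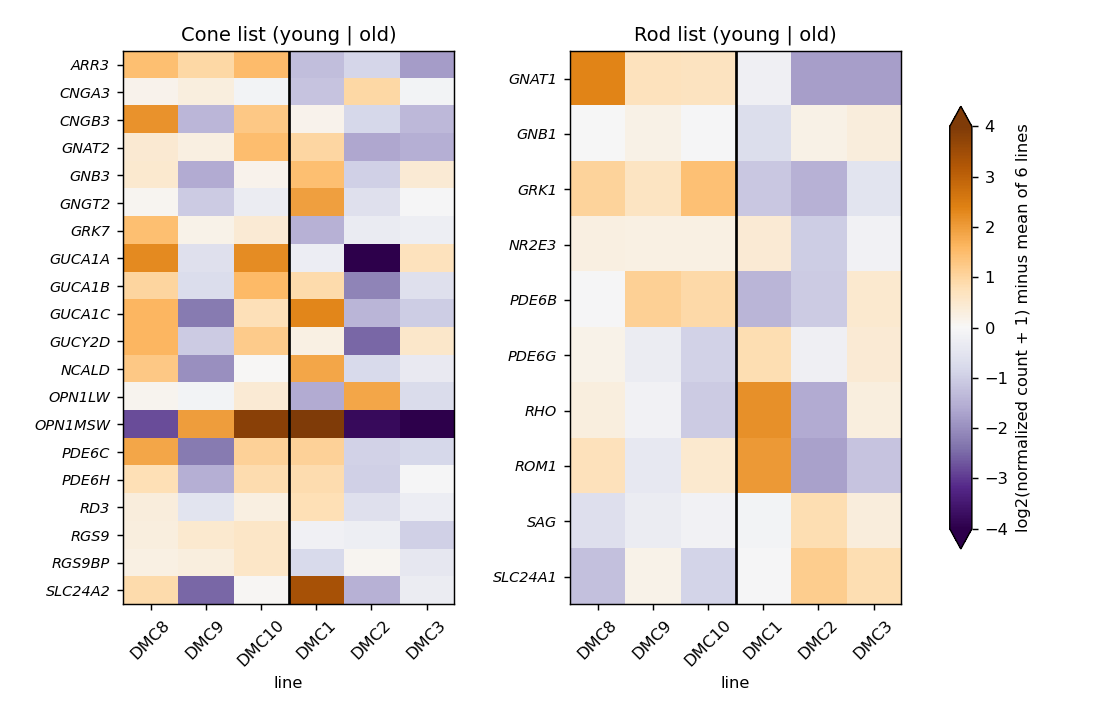
Level of each tested member of the cone list (left, 20 genes) and the rod list (right, 10 genes) in each line, as log2(normalized count + 1) minus the mean of the 6 lines (colour, orange above and purple below the mean, capped at 4 in each direction), with young lines left and old lines right of the black line. ARR3, RGS9 and GRK1 separate the ages, while OPN1MSW differs between lines of 1 age.

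Of 10 rod genes tested, 0 were DE in limma and 2 had an unadjusted p under 0.05, both lower in old. GRK1, rhodopsin kinase, was at 86, 64.7 and 111 in the young lines and 18.3, 14.1 and 28.2 in the old lines (log2 fold change -2.08, SE 0.79, adjusted p = 0.433). GNAT1, the transducin of rods, was at 16.5, 4.49 and 4.43 in the young lines and 1.93, 0 and 0 in the old lines, which are few reads at both ages. Of 19 photoreceptor transcription factors, 0 were DE, and 1 each way had an unadjusted p under 0.05. RXRG, a nuclear receptor of early cones, was at 25030.0, 24938 and 24603 in the young lines and 16498, 13563 and 25836 in the old lines. THRB, the thyroid hormone receptor that sets the red cone fate, was at 6543, 3589 and 3398 in the young lines and 2074, 4349 and 4832 in the old lines. OTX2, which starts the photoreceptor programme, was at 15832, 12737 and 15641 in the young lines and 9044, 12335 and 15335 in the old lines. These 3 were overlapping. RAX, an eye field homeobox gene, was lower in each old line at 254, 102 and 206 in the young lines and 33.7, 51.6 and 19.7 in the old lines (log2 fold change -2.39, SE 0.61, adjusted p = 0.198). MAFA, a leucine zipper factor, was higher in each, at 24.7, 24.3 and 24.4 in the young lines and 255, 48.8 and 142 in the old lines (log2 fold change 2.26, SE 0.68, adjusted p = 0.275). Neither passed the adjusted threshold.

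In the list of retinoid and visual cycle genes, 1 of 19 tested was DE (STRA6, lower in old) and 6 lay entirely below the young lines, with a median log2 fold change of -0.53. RBP4, the plasma carrier of retinol, was very abundant at 270299, 159490.4 and 218205 in the young lines and 219210.1, 112017 and 399045 in the old lines, and RBP3, the carrier between photoreceptors and pigment epithelium, was at 28283, 18146 and 33036 in the young lines and 30763, 14603 and 23058 in the old lines. The groups overlapped in both. Of 19 outer segment and cilium genes, 1 was DE (AIPL1, lower in old), and the median was -0.16.

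Patterning factors held 2 of the 9 DE genes higher in old, HAND2 and IRX3, of 22 tested, and none of those lower. Over all genes 0.0589% were DE and higher. The study names both genes for this comparison, and the lists were chosen with earlier results known. The count is therefore no sign of an enrichment. Their median log2 fold change was 0.12, and 4 lay entirely above and 2 entirely below the young lines. MEIS1, a homeobox partner of HOX and PAX proteins, was at 1038, 796 and 1355 in the young lines and 435, 529 and 390.5 in the old lines (log2 fold change -1.21, SE 0.25, adjusted p = 0.12). LHX2, a factor of the early eye field, was at 7.07, 0.899 and 2.22 in the young lines and 36.6, 15 and 49.7 in the old lines, with few reads in the young lines (log2 fold change 3.09, SE 0.96, adjusted p = 0.304). SIX3, which marks retinal progenitors, was at 1919, 2079 and 2252 in the young lines and 2620.0, 2595 and 2090.3 in the old lines, and its relative SIX6 at 2676, 2642 and 4138 in the young lines and 1470.3, 1355 and 2654 in the old lines. Both overlapped between the ages. None of 34 HOX genes in the table passed the filter on reads, and 25 had no read in any of the 6 lines.

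Markers of other retinal cell types gave no DE gene. Of 16 amacrine cell genes tested, 3 had an unadjusted p under 0.05 with higher values in old and 2 with lower, with a median log2 fold change of 0.87 and a summed level of 8054 to 10018 in the young lines and 10096 to 18058 in the old lines. NEUROD2, a proneural factor, was at 1118, 2411 and 717 in the young lines and 5260.2, 4458 and 2704 in the old lines (log2 fold change 1.68, SE 0.39, adjusted p = 0.153). SLC18A3, the vesicular acetylcholine transporter, was at 4.71, 6.29 and 1.11 in the young lines and 404, 64.8 and 30.0 in the old lines (log2 fold change 4.40, SE 1.07, adjusted p = 0.17), with the highest value in DMC1. The 2 lower amacrine genes were NHLH1 and TFAP2B, the latter given with the horizontal cell genes. NHLH1 was at 543, 1671 and 1640 in the young lines and 5.78, 432 and 179 in the old lines (log2 fold change -3.82, SE 1.51, adjusted p = 0.459). Of 18 ganglion cell genes the median was 0.48. ELAVL4, an RNA-binding protein of neurons, was at 477, 923 and 789 in the young lines and 2159, 1784 and 2118 in the old lines (log2 fold change 1.52, SE 0.49, adjusted p = 0.322). NEFM, a neurofilament, was at 4133, 2214 and 4064 in the young lines and 369, 339 and 1429 in the old lines (log2 fold change -2.56, SE 0.85, adjusted p = 0.337). Both genes separated the ages, in opposite directions. Of 10 horizontal cell genes tested, 4 were higher and 6 lower in old, with 2 higher and 1 lower at an unadjusted p under 0.05. The horizontal cell factor LHX5 was at 0, 5.39 and 0 in the young lines and 9.63, 109.9 and 159.6 in the old lines, with DMC1 near the young lines. TFAP2B, a factor of horizontal and amacrine cells, which had few reads, was at 11.8, 2.7 and 3.32 in the young lines and 0, 1.88 and 0 in the old lines.

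Markers of microglia and blood, Müller glia and pigment epithelium gave no DE gene either. Of 11 microglia and blood genes tested, 10 were lower in old, 5 of them with an unadjusted p under 0.05, and 0 were DE. The median log2 fold change was -1.38, or -1.91 with genes at 0 set to their bound, and 4 lay entirely below the young lines. The summed level of the list was 1474 to 2303 in the young lines and 1291 to 2207 in the old lines, most of it from CD74. C1QA, a complement subunit of microglia, was at 30.6, 14.4 and 13.3 in the young lines and 0.963, 0 and 0.939 in the old lines (adjusted p = 0.0534 in limma), and C1QC, its partner, at 11.8, 1.8 and 2.22 in the young lines and 0 in the old ones. Of 13 Müller glia genes tested, 7 were higher and 6 lower in old, with a median log2 fold change of 0.10 and 0 DE genes, and 1 was higher and 3 were lower at an unadjusted p under 0.05. SOX9, which marks Müller glia and progenitors, was at 13, 47.6 and 8.87 in the young lines and 0.963, 0.939 and 0.939 in the old lines, while DKK3, a secreted protein of the Dickkopf family, was at 208, 391 and 357 in the young lines and 1335, 686 and 672 in the old lines. Müller glia genes summed to 2748 to 3506 in the young lines and 3191 to 4115 in the old lines, and pigment epithelium genes to 36107 to 67698 in the young lines and 39267 to 75019 in the old lines, where PMEL alone gave most. In E14 retina the sums were 4133 to 12559 for microglia and blood genes and 19136 to 23916 for Müller glia genes. For pigment epithelium genes they were 3102 to 3803, below every line, a gap that PMEL carried. PMEL had a mean of 123 in E14 retina, against 34798 or more in each of the 6 lines. DCT, of the same list, went the other way, with means of 2292 in E14 retina, 556 in young and 736 in old lines. The part of such cells in the differences between ages was not tested.

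Lists of growth and division held no DE gene. Cyclins and CDKs (21 tested), E2F and RB genes (15), replication factors (41), telomere genes (13), the MYC network (17) and cholesterol synthesis (22) had 0 DE genes at an adjusted p of at most 0.05 in limma, with a single gene of all of them, the origin factor ORC2, at an unadjusted p under 0.05. Most members had slightly lower values in old in the cyclins and CDKs (18 of 21, median log2 fold change -0.24), the replication factors (30 of 41, -0.16) and cholesterol synthesis (16 of 22, -0.25). On the deposited scale, where the median of all genes was itself shifted to 0.15, these 3 medians were -0.08, -0.00 and -0.09. Each thus stayed below that of all genes. Without DMC1 the 3 medians were 0.01, 0.13 and 0.01, above 0, with that of all genes at 0.005. The other lists were more even, with 9 of 15 E2F and RB genes, 7 of 13 telomere genes and 11 of 17 MYC network genes lower. MKI67, the proliferation marker, was at 9854, 10046 and 6371 in the young lines and 4082, 12376 and 10224 in the old lines. TOP2A, the topoisomerase of dividing cells, was at 30851, 31907 and 22839 in the young lines and 17642, 22521 and 34375 in the old lines. E2F1, which starts S phase genes, was at 3151, 4965 and 4734 in the young lines and 1843, 5640.2 and 6849 in the old lines. DMC1 was the lowest of the 6 lines in MKI67, TOP2A and E2F1. TERT, the catalytic subunit of telomerase, was at 91.9, 82.7 and 446 in the young lines and 135, 894 and 44.1 in the old lines, a wide range within each age.

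CDKN2A and CDKN2B, of the CDK inhibitor list, were higher in each old line without passing the test. CDKN2A, whose locus encodes an upstream activator of p53, was at 228, 759 and 103 in DMC8, DMC9 and DMC10 and at 2411, 3152 and 1899 in DMC1, DMC2 and DMC3 (log2 fold change 3.21, SE 1.09, adjusted p = 0.35). CDKN2B, its neighbour and an inhibitor of CDK4 and CDK6, was at 11.8, 2.7 and 0 in the young lines and 629, 66.7 and 32.9 in the old lines (log2 fold change 4.97, SE 1.29, adjusted p = 0.203), highest in DMC1. The T58A lines, also cultured for over 200 days, had means near the young ones in both genes. For CDKN2A the T58A mean was 310, against 364 in young and 2487 in old lines. For CDKN2B it was 8.27, against 4.82 and 243. Of 6 CDK inhibitors tested, 0 were DE and only these members had an unadjusted p under 0.05. CDKN1B, another inhibitor, was at 1668, 2288 and 2254 in the young lines and 1902, 2592 and 1584 in the old lines, with overlap.

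Several targets of p53 separated the old lines from each other. Of 26 genes of the pathway tested, 0 were DE, and 4 were lower and 1 higher in old at an unadjusted p under 0.05. CDKN1A, the inhibitor p21 that p53 induces, was at 1120.1, 1489 and 1215 in the young lines and 2274, 37.6 and 251 in the old lines. TNFRSF10B, a death receptor that p53 induces, was at 1133, 1671 and 1311 in the young lines and 1180.5, 116 and 197 in the old lines. SESN1, a stress protein, was at 1184, 1763 and 1474 in the young lines and 1236, 344 and 398 in the old lines. CCNG1, a cyclin that binds MDM2, was at 8952, 11147 and 11738 in the young lines and 9228, 3177 and 4445 in the old lines. In all of these DMC2 and DMC3 were below every young line while DMC1 was at or above the lowest young line. MDM2, which degrades p53, was at 2225, 2349.9 and 2117 in the young lines and 3129, 1899 and 1554 in the old lines, also highest in DMC1. GADD45G, a stress gene, was lower in all old lines, at 568, 374 and 247 in the young lines and 148, 157 and 97.6 in the old lines (log2 fold change -1.50, SE 0.36, adjusted p = 0.17). TIGAR, a regulator of glycolysis, was higher in all old lines, at 478, 338 and 346 in the young lines and 878, 572 and 721 in the old lines (adjusted p = 0.392 in limma).

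**Figure D4:**
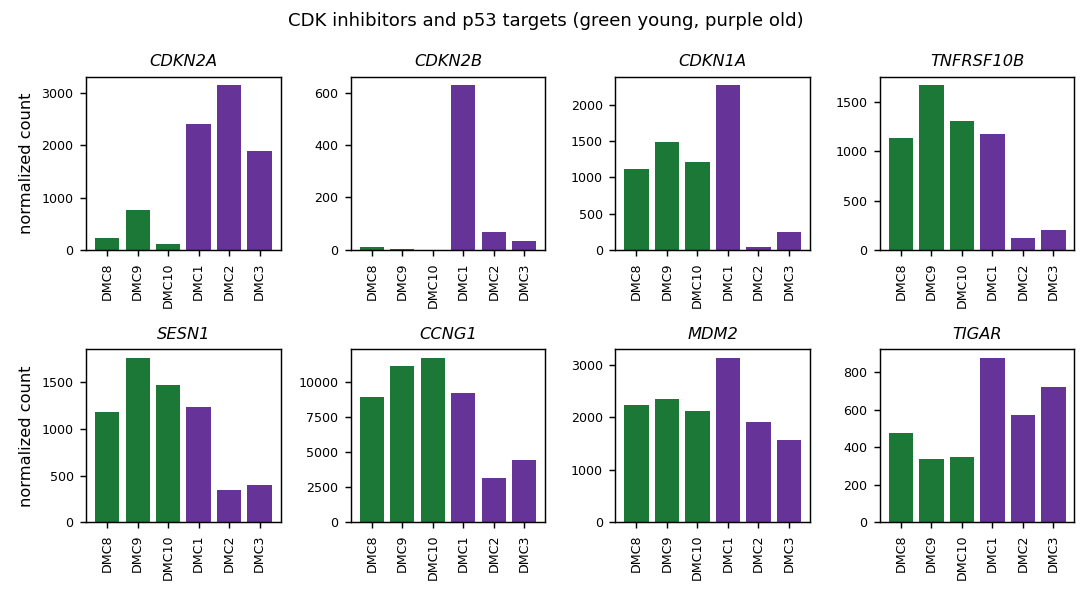
Normalized counts (y axis, from 0, each panel on its own scale) of 8 genes of the CDK inhibitor and p53 lists in the 3 young lines (green bars) and the 3 old lines (purple bars), 1 bar per line. CDKN2A and CDKN2B are higher in each old line, whereas CDKN1A, TNFRSF10B, SESN1 and CCNG1 are low in DMC2 and DMC3 and not in DMC1.

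Respiratory chain genes differed by small amounts, and none passed the test. Of 46 respiratory chain genes tested, 43 were higher in old and 20 lay entirely above the young lines, with a median log2 fold change of 0.28 and 0 DE genes, and 6 at an unadjusted p under 0.05. The summed level was 168160.4 to 182087 in the young lines and 195177 to 229961 in the old lines, without overlap. UQCRB, a subunit of complex III, was at 2828, 2188 and 2494 in the young lines and 4161, 3545 and 4254 in the old lines (log2 fold change 0.67, SE 0.27, adjusted p = 0.461). NDUFB4, of complex I, was at 1403, 1284 and 2020.4 in the young lines and 2610.4, 2082 and 3019 in the old lines (log2 fold change 0.72, SE 0.25, adjusted p = 0.372). The median stayed above 0 under each of the scalings tried, at 0.28 to 0.43. The median of all genes also moved with the scaling, to 0.15 in the values as deposited.

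Most glycolysis genes had lower values in old lines. Of 22 tested, 15 were lower in old, with a median log2 fold change of -0.43, and 5 were lower and 2 higher at an unadjusted p under 0.05. Entirely below the young lines lay 4 genes, and entirely above them 2. The summed level overlapped, at 1055477 to 1493405 in the young lines and 713030 to 1183263 in the old lines. LDHA, the lactate dehydrogenase subunit that makes lactate, was at 65265, 90909.8 and 106179.7 in the young lines and 3839.9, 52578 and 26697 in the old lines (log2 fold change -2.29, SE 0.77, adjusted p = 0.339), lowest in DMC1. LDHB, the subunit that favours pyruvate, was higher in each old line, at 25615, 20766 and 21607 in the young lines and 39225, 30976 and 31090.2 in the old lines (log2 fold change 0.57, SE 0.19, adjusted p = 0.343). HK2, the hexokinase of fast-growing cells, was at 7338, 13053 and 10115 in the young lines and 850.2, 7829.8 and 1882 in the old lines (adjusted p = 0.516 in limma). Of 17 hypoxia genes, 7 were lower and 1 higher at an unadjusted p under 0.05. CA9, a carbonic anhydrase induced by low oxygen, was at 1076, 1933 and 1511 in the young lines and 255, 319 and 456 in the old lines (log2 fold change -2.13, SE 0.68, adjusted p = 0.321). EGLN3, a prolyl hydroxylase of the same response, was at 252, 472 and 448 in the young lines and 6.74, 239 and 45.1 in the old lines (log2 fold change -3.10, SE 0.94, adjusted p = 0.285). None of the genes in either list was DE.

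Of 64 ribosomal protein genes, 61 were lower in old, 5 lay entirely below the young lines, 5 had an unadjusted p under 0.05 and 0 were DE. Over all genes, 8.03% lay entirely below the young lines and 4.89% were lower at an unadjusted p under 0.05. The median log2 fold change was -0.42, and stayed below 0 under the scalings tried, at -0.42 to -0.26, while that of all genes reached 0.15 in the values as deposited. RPS6, a protein of the small subunit, was at 94959, 147542 and 78932 in the young lines and 34895, 53553 and 54099 in the old lines (log2 fold change -1.15, SE 0.40, adjusted p = 0.372). RPS23, of the same subunit, was at 26185, 44594 and 24249 in the young lines and 9961, 17362 and 16834 in the old lines (log2 fold change -1.09, SE 0.32, adjusted p = 0.273), so that the old lines were below even the lowest young line. Summed levels were 1857584 to 2952224 in the young lines and 1359069.8 to 2165868 in the old lines. Genes of ribosome biogenesis, which MYC proteins are known to induce, had a median of -0.01 over 29 tested, and 0 were DE or had an unadjusted p under 0.05.

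ATF4 and PSAT1 had higher values in old lines. ATF4, the factor of the integrated stress response, was at 14704, 21169.9 and 21564 in the young lines and 32092, 50726 and 22996 in the old lines (log2 fold change 0.83, SE 0.28, adjusted p = 0.345). PSAT1, an enzyme of serine synthesis, was at 1287, 2274 and 1528 in the young lines and 5249, 5634 and 3008 in the old lines (log2 fold change 1.44, SE 0.44, adjusted p = 0.293). Every old line was above every young line in both, but neither was DE. Of 21 stress genes and 23 serine, folate and nucleotide genes tested, 0 were DE and 1 each way in each list had an unadjusted p under 0.05, with medians of 0.04 and 0.03.

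Matrix and adhesion genes lay in both directions. Of 61 matrix and integrin genes tested, 1 was DE (CEMIP), 6 were higher and 9 lower at an unadjusted p under 0.05, and the median log2 fold change was -0.23. COL4A1, a collagen chain of basement membranes, was higher in each old line, at 31.8, 34.1 and 19.9 in the young lines and 232, 109.9 and 193 in the old lines (adjusted p = 0.203 in limma). COL4A2, its partner chain, was at 97.8, 106 and 74.3 in the young lines and 814, 398 and 506 in the old lines (adjusted p = 0.111 in limma). COL6A1 was lower, at 278, 803 and 706 in the young lines and 3.85, 141 and 26.3 in the old lines (log2 fold change -4.35, SE 0.97, adjusted p = 0.134). Of the alternatives, it passed the test in the one that left out DMC2 (adjusted p = 0.0363 in limma). The collagens thus lay in both directions. COL1A2, a fibrillar collagen of mesenchyme, was at 138, 231 and 385 in the young lines and 7.7, 32.9 and 84.5 in the old lines. COL18A1, of vessel and epithelial basement membranes, was at 3301, 5653 and 4690.3 in the young lines and 1349, 2133 and 2365 in the old lines (log2 fold change -1.23, SE 0.28, adjusted p = 0.146). TNR, a matrix protein of the nervous system, was at 61.2, 89.9 and 56.5 in the young lines and 464, 1398 and 275 in the old lines, and so higher in each old line (log2 fold change 3.04, SE 0.78, adjusted p = 0.198).

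In axon guidance, 55 genes were tested and OLFM1 alone was DE, with 5 genes each way at an unadjusted p under 0.05. EPHA4, an ephrin receptor, was at 2118, 1731 and 1992 in the young lines and 16.4, 597 and 351 in the old lines (log2 fold change -3.65, SE 1.05, adjusted p = 0.249), with DMC1 lowest. Of 38 cadherins CELSR1 alone was DE, and the median was -0.02. In both lists the ages differed in single members. Within ligand pathways 0 genes of the BMP and TGF-beta (39 tested), Notch (22), WNT (46), hedgehog (13) and FGF and receptor tyrosine kinase (50) lists were DE. At an unadjusted p under 0.05 in limma, these lists in turn had 3, 1, 3, 1 and 1 genes higher in old and 4, 3, 2, 1 and 3 lower. SMAD7, an inhibitor of TGF-beta signals, was at 1248, 1615 and 784 in the young lines and 311, 323 and 470.3 in the old lines (log2 fold change -1.69, SE 0.49, adjusted p = 0.258). LFNG, a modifier of Notch, was at 2.36, 8.99 and 7.76 in the young lines and 98.2, 306 and 37.5 in the old lines (log2 fold change 3.99, SE 1.15, adjusted p = 0.251). BOC, a hedgehog co-receptor, was at 54.2, 203 and 131 in the young lines and 12.5, 15 and 9.39 in the old lines (log2 fold change -3.12, SE 0.85, adjusted p = 0.222). All 3 of these genes separated the ages without passing the test. INSR, the insulin receptor, was lower in each old line, at 2131, 2353 and 2189 in the young lines and 1188, 1016 and 1278 in the old lines (log2 fold change -0.94, SE 0.18, adjusted p = 0.0899). IGF2BP2, an RNA-binding protein of growth control, was at 2182, 8448 and 3795 in the young lines and 950.4, 1929 and 1346 in the old lines (log2 fold change -1.61, SE 0.43, adjusted p = 0.219).

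Among ion channels, 65 genes were tested, KCNH8 was the DE one, and the median log2 fold change was 0.23. The related channel KCNH6 was lower in each old line, at 7370.5, 4730.4 and 6956 in the young lines and 1148, 2349 and 2426 in the old lines (log2 fold change -1.74, SE 0.35, adjusted p = 0.112). CACNA1E, a calcium channel, was higher, at 91.9, 37.7 and 46.5 in the young lines and 619, 214 and 591 in the old lines (log2 fold change 2.95, SE 0.58, adjusted p = 0.101). KCNMA1, a calcium-activated potassium channel, was also higher, at 562, 77.3 and 372 in the young lines and 3732, 699 and 678 in the old lines (log2 fold change 2.25, SE 0.76, adjusted p = 0.348). Of 65 neurotransmitter receptor genes 0 were DE, and 7 were higher and 4 lower at an unadjusted p under 0.05. GRIN1, the obligate NMDA receptor subunit, was higher in each old line, at 6222, 6378 and 8426 in the young lines and 14702, 12499 and 11461 in the old lines (log2 fold change 0.88, SE 0.18, adjusted p = 0.113). GLRA3, a glycine receptor subunit, was lower in each, at 758, 76.4 and 166 in the young lines and 6.74, 37.6 and 16 in the old lines (log2 fold change -3.64, SE 0.83, adjusted p = 0.146). The synapse list held 0 DE genes of 30 tested, with 2 higher and 1 lower in old at an unadjusted p under 0.05. Most of its members had higher values in old (20 higher and 9 lower, median log2 fold change 0.25). UNC13A, which primes vesicles, was at 2438, 3486 and 2552 in the young lines and 1435, 938 and 1092 in the old lines (log2 fold change -1.29, SE 0.33, adjusted p = 0.198).

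No gene was DE among 22 apoptosis genes, 21 chaperones, 31 chromatin regulators and 24 interferon and MHC genes tested. Their median log2 fold changes were -0.09, 0.02, -0.17 and -0.16 in that order. Among markers of bipolar cells (10 tested), retinal progenitors (14), horizontal cells (10) and vessels and mesenchyme (8) there was no DE gene either, with medians of -0.28, -0.23, -0.22 and -0.47. GPAT2 was the DE gene of 25 fatty acid and lipid genes, and TOX2 that of 12 high mobility group and TOX genes. In each of these lists at most 4 members had an unadjusted p under 0.05 in limma.

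**Figure D5:**
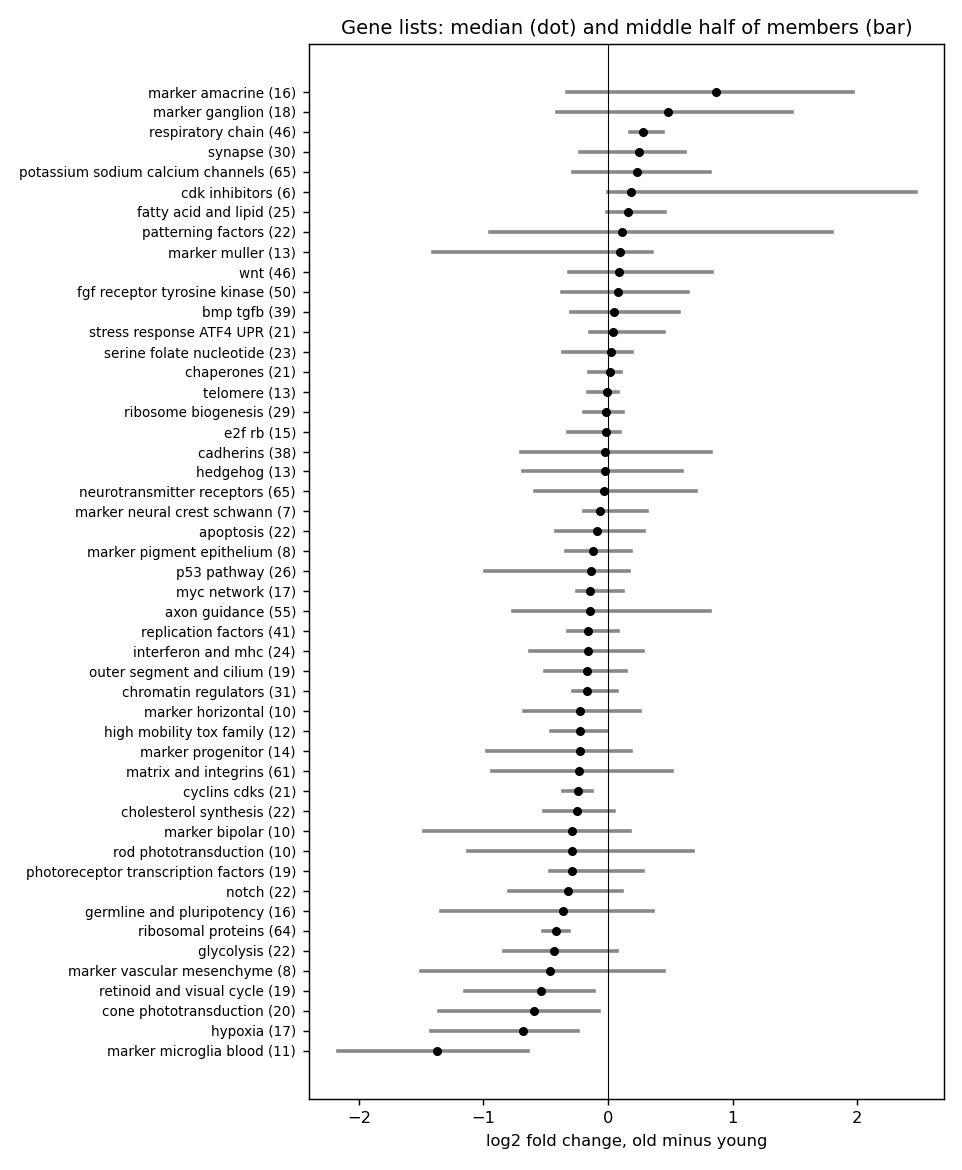
Median log2 fold change between old and young lines (dots, x axis) and the range between the quartiles (grey bars) of each gene list with at least 5 genes tested (y axis, number tested in brackets), ordered by the median. Microglia and blood genes, hypoxia genes and cone genes have the lowest medians, and amacrine genes the highest.

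The similarity of lines within an age overlapped that between ages. Pearson's r of log2(normalized count + 1) over 15284 genes, which are not independent replicates, was 0.957 to 0.967 between young lines, 0.924 to 0.966 between old lines and 0.907 to 0.958 between a young and an old line. Genes that differed by at least 1 on the log2 scale numbered 2275 to 3306 in a pair of young lines, 2633 to 4490 in a pair of old lines and 3148 to 5189 in a pair of unlike age. The median SD over lines was 0.33 in the young group and 0.43 in the old group on the log2 scale, against 0.17 in E14 retina and 0.64 in the T58A lines. The SD was larger in old than in young in 9524 genes (62.3%), and above 1 in 1810 genes in the young and 2723 in the old group.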

How the data were processed

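RNA of the 6 lines, of 3 MYCN T58A lines and of 3 E14 retinas was sequenced as stranded poly(A) libraries. The deposited values are a signal: the authors aligned reads to galGal6, counted them per gene with featureCounts 2.0.0 and divided the counts by TMM factors of edgeR. The 12 factors were applied in turn down each column, so that only 8.36% of values carry their own library's factor. Whole reads were recovered: all 205632 values above 0 were whole multiples of the reciprocal of exactly 1 factor (tolerance 1e-06). They were rescaled by library total and own TMM factor.

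Of 24358 genes, 15284 with at least 10 reads in at least 3 libraries were tested with limma 3.58.1 (R 4.3.3) on log2(normalized count + 1), with 12 libraries in 4 groups and a mean-variance trend. Log2 fold changes are on that scale, which understates those of low genes. A symbol on several rows was represented by its highest row. Names of 1204 genes came from RefSeq. The lists and genes were chosen with earlier results of these data known. DE genes, transgenes and genes the study names were described by rule, and other list members were named after their values were seen. Scaling, pseudocount, filter, weights, the libraries fitted, W transcripts and left-out lines were varied. Some genes are not reported here.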

Additional observations from a re-analysis of the deposited data

How the results depend on the processing

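Of the 30 DE genes (9 higher and 21 lower in old), none changed direction under any alternative. They were chosen by the same values that the alternatives reuse, so this is no separate support. The DE genes old minus young numbered 19 with a filter of 50 reads in 3 libraries, 1 in the fit of the 9 DMC libraries, 1 in the fit of the 6 lines and 2 with the W term, and 5 to 17 when a line was left out. Those higher in old numbered 5 with voom weights, 0 in the 9-library fit, 0 in the 6-line fit and 0 with the W term, and 1 to 4 when a line was left out. Those lower in old numbered 11 in the values as deposited, 33 with a pseudocount of 10, 11 with the filter of 50 reads, 1 in the 9-library fit, 1 in the 6-line fit and 2 with the W term, and 4 to 14 when a line was left out. At an unadjusted p under 0.05 in limma, 1428 genes stood in the reported fit, 1007 in the 9-library fit, 1703 in the 6-line fit and 761 with the W term. The cause of these differences was not tested. The W term and the fit without chromosome W were chosen after seeing the data. Over all DE genes and alternatives, 316 values kept their side of the threshold and 249 lost it. Of the other named genes, 1164 values kept their side and 2 passed it (ARR3 with voom weights and COL6A1 without DMC2). Of list medians, 898 moved by less than the spread between lines and 33 by more. No paired analysis was possible because the young and old lines share no replicate number. Genes with few reads limit the depth at which an absence can be seen: 3 reads over the old lines equal a normalized count of 0.947.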

Other observations

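Single lines stood apart from the other 5 in a few genes. Genes at least 3 log2 units above the 5 other lines, with at least 100 normalized counts on the high side, numbered 42 in DMC1, 2 in DMC2, 0 in DMC3, 5 in DMC8, 1 in DMC9 and 3 in DMC10. Those equally far below numbered 19 in DMC1, 8 in DMC2, 1 in DMC9 and 0 in the rest. DMC1 was highest in CALB1, a calcium-binding protein of horizontal and amacrine cells, at 869, 4.69 and 11.3 in DMC1, DMC2 and DMC3 and 2.36, 0 and 1.11 in the young lines. It was lowest in PENK, the precursor of enkephalins, at 668, 817 and 1033 in the young lines and 3.85, 1165 and 1384 in the old lines, and in NHLH1, a helix-loop-helix factor of young neurons, at 543, 1671 and 1640.3 in the young lines and 5.78, 432 and 179 in the old lines. SEMA3A, a secreted repellent of axons, followed with 594, 332 and 377 in the young lines and 5.78, 139.9 and 195 in the old lines. DMC1 was thus the line with most genes of its own.

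SHOX2, a homeobox factor of limb and neuron development, was at 8.24, 11.7 and 5.54 in the young lines and 41.4, 1236 and 46.9 in the old lines, highest in DMC2. SST, the precursor of somatostatin, was at 352, 20.7 and 13.3 in the young lines and 0, 0.939 and 5.63 in the old lines, and SPARC, a matrix protein, at 429.9, 44 and 52.1 in the young lines and 17.3, 27.2 and 13.1 in the old lines, both highest in DMC8. SLC6A5, the glycine transporter of neurons, was at 14.1, 399.9 and 44.3 in the young lines and 15.4, 5.63 and 13.1 in the old lines, highest in DMC9. NR2F1, a nuclear receptor of retinal and cortical patterning, was at 3.53, 13.5 and 136 in the young lines and 13.5, 0.939 and 0.939 in the old lines, highest in DMC10. In germ cell and pluripotency genes, 16 were tested and GPAT2 alone was DE. Of the 16, 6 were higher and 10 lower in old, with 1 higher and 3 lower at an unadjusted p under 0.05. Entirely above the young lines lay 2, and entirely below them 3. ASZ1, a partner of the piRNA pathway in mouse germ cells, was at 112, 247 and 713 in the young lines and 1.93, 31.9 and 72.3 in the old lines (log2 fold change -3.82, SE 1.23, adjusted p = 0.321), and the ages did not overlap. TDRKH and TFAP2C, of the same list, separated the ages in the other direction. TDRKH was at 1897, 2320 and 2306 in the young lines and 3000, 2931 and 3874 in the old lines (adjusted p = 0.677 in limma). TFAP2C was at 0, 10.8 and 1.11 in the young lines and 91.5, 12.2 and 17.8 in the old lines (adjusted p = 0.228 in limma). The pluripotency factor gene Pou5f3 was at 7109, 8335 and 9485 in the young lines and 10188, 6509 and 8122 in the old lines.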
